A study of Mus musculus with 18 samples.

Results

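The matrix metalloproteinases (MMPs), their tissue inhibitors (TIMPs) and the ADAM and ADAMTS proteases of mouse bone marrow-derived macrophages (BMDM) were described at the level of mRNA. The members were every protein-coding gene of GRCm38 whose symbol starts with Mmp, Timp, Adam or Adamts followed by a digit. This gave 78 of the 55385 genes in the count table, namely 22 MMP, 4 TIMP, 33 ADAM and 19 ADAMTS genes. BMDM were grown from the marrow of 3 female C57BL/6J mice, 12 weeks of age, in medium with L929 culture supernatant as the source of growth factor, and were harvested on day 7. Cells received vehicle (Veh, 0.1% DMSO), 250 µM HC3 (hemicholinium-3, which blocks choline uptake) or 5 µM RSM-932a (RSM, which inhibits choline kinase) for 24 h, and were then left naïve (M[0]) or polarized with IL-4 at 20 ng/mL for a further 24 h (M[IL-4]). The 6 resulting groups had 3 libraries each, 18 in all, and the labels give the strain alone as genotype for every group. The labels number the libraries 1 to 3 within each group without tying a number to a mouse, so p-values measure the spread between these libraries.

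MMPs are secreted or membrane-bound zinc proteases that cut collagens, elastin and other matrix proteins, and they are made as inactive precursors. ADAM proteases sit in the cell membrane, where ADAM10 and ADAM17 release the outer parts of cytokines, receptors and adhesion molecules, whereas ADAMTS proteases are secreted and cut proteoglycans or process procollagens and microfibril proteins. TIMPs bind the active site of MMPs and of some ADAM and ADAMTS proteases, and macrophages are a known source of both proteases and inhibitors during tissue repair.

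Libraries held 17457796 to 19522255 counted read pairs, so 3 counts, taken as the floor, were worth 0.154 to 0.172 CPM (counts scaled to a common library size, with TMM factors). Macrophage genes were abundant in every library, with 12 identity genes summing to 8606 CPM or more. Their mean sum was 22507 CPM with Veh, 10086 CPM with HC3 and 17334 CPM with RSM in M[0]. In M[IL-4] it was 13466, 8956 and 13119 CPM in the same order. Of these 12, HC3 lowered 8 and RSM 4 in naïve cells, beside 6.11% and 6.51% of all genes. After IL-4, 3 and 1 fell, beside 5.53% and 6% of all genes. Neutrophil genes were near 0, as 11 of 12 stayed below 1 CPM in every group, with *Elane*, *S100a9* and *Fcnb* at 0. Of 9 dendritic cell genes, 7 stayed below 1 CPM. Genes of fibroblasts and stromal cells were present, since 13 of 15 passed the count filter and *Lum* and *Thy1* stayed below 1 CPM. Their summed level was 1035 to 1802 CPM in Veh M[0], 2797 to 3786 CPM in HC3 M[0] and 1962 to 3009 CPM in RSM M[0], and 566 to 1293, 1252 to 2277 and 1054 to 1999 CPM in the same order in M[IL-4]. In every group replicate 2 had the lowest stromal sum, at a ratio of 0.44 to 0.747 to the mean of the other replicates, and several members shared this order, as described below.

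Of the expressed MMPs, 5 are genes of a single cluster, and their start regions are shown first. The cluster holds 9 members, *Mmp13*, *Mmp12*, *Mmp1b*, *Mmp3*, *Mmp10*, *Mmp8*, *Mmp27*, *Mmp20* and *Mmp7*, on chromosome 9 of GRCm38 from 7272514 to 7699585, a span of 427 kb in which the GENCODE annotation has no other protein-coding gene. All but *Mmp1b* are on the plus strand. *Mmp13*, *Mmp12*, *Mmp10*, *Mmp8* and *Mmp27* were expressed. RefSeq promoter windows (GRCm38.p6, plus strand, 250 bases before to 50 bases after the transcript start) run from chr9:7272264-7272563 for *Mmp13*, chr9:7344147-7344446 for *Mmp12*, chr9:7502092-7502391 for *Mmp10*, chr9:7558179-7558478 for *Mmp8* and chr9:7571146-7571445 for *Mmp27*. They are printed 5′ to 3′ with matches to the AP-1 motif TGANTCA or to TGATGNAA, the CARE element of ATF4 and CHOP, in capitals.
Mmp13: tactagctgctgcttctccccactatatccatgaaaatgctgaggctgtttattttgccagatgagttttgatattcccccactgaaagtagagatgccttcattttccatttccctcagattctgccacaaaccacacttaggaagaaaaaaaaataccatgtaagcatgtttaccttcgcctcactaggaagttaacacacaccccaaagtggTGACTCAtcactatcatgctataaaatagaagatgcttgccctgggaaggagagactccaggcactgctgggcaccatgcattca
Mmp12: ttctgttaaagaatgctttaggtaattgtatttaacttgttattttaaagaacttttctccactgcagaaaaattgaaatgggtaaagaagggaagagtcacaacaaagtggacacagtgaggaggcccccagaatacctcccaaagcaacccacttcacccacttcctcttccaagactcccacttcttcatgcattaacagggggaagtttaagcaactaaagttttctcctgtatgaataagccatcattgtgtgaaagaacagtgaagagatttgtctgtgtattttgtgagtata
Mmp10: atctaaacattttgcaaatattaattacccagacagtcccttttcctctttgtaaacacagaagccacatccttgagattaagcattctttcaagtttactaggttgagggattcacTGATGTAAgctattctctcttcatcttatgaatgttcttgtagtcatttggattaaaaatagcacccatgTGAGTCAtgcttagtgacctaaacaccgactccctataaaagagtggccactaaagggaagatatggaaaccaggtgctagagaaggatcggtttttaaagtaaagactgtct
Mmp8: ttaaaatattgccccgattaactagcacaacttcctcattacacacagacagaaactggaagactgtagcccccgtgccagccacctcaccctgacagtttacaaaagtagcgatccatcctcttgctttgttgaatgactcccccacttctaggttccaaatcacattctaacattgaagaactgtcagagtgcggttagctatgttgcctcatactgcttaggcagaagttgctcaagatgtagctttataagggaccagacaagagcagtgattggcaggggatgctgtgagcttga
Mmp27: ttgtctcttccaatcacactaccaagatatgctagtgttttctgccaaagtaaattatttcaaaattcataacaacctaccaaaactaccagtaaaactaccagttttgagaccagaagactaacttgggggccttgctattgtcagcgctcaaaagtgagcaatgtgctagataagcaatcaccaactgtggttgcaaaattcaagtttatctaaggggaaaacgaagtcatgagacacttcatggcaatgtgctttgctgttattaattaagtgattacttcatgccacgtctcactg

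The window of *Mmp13* held TGACTCA with its first letter 35 bases before the start. That of *Mmp10* held TGAGTCA 63 bases before the start and TGATGTAA 133 bases before it. The *Mmp8* and *Mmp27* windows and the *Mmp12* window shown held none of the motifs searched, although another RefSeq window of *Mmp12* held TGANTCA. Both strands were searched, and the palindromic STAT6 motif was in none of the 5 windows shown. Of 32851 RefSeq promoters of mouse, 7.81% held TGANTCA, 3.97% held TGATGNAA and 6.95% held the STAT6 motif. Windows were found for 48 of the 78 members and 25 of the expressed ones, of which *Adam19*, *Mmp10*, *Mmp12* and *Mmp13* held TGANTCA, *Mmp10* held TGATGNAA and *Adam19* held the STAT6 motif. The 5 windows were 37.7% to 46% G and C, against a mean of 53.8% over all promoters.

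Of the 78 members, 39 were expressed, which required 10 counts or more in 2 or more of the 18 libraries. These were 14 of 22 MMPs, 3 of 4 TIMPs, 12 of 33 ADAMs and 10 of 19 ADAMTSs. Among the others, 15 had no count in any library, 11 of them ADAMs, and 24 had counts below the filter, the highest being 12 counts for *Mmp3* (stromelysin-1). The unexpressed ADAMs were largely those known from testis, such as *Adam2*, *Adam3* and *Adam24*. *Mmp7* (matrilysin), *Mmp20* (enamelysin) and *Adamts18* were also at 0. Among the expressed ADAMs, *Adam4* only just passed, with at most 10 counts, reached in 2 libraries, both with RSM. *Adam1a* had at most 29 counts, and other genes of its strand overlap 63.7% of its exon length.

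Per length, *Adam8*, a leukocyte ADAM, was the most abundant member in every group. In Veh M[0] its level was 382 ± 37.6 RPKM (CPM per kilobase of exon, mean ± SD of 3 libraries, as for all levels below). *Timp2* followed at 163 ± 8.68 RPKM, then *Mmp12*, the macrophage elastase, at 86.9 ± 10.5 RPKM. *Adam9*, *Timp1*, *Adam10* and *Adam17* came next at 68.4 ± 2.12, 60.3 ± 12.6, 52.5 ± 3.68 and 44.8 ± 3.84 RPKM, and among these the neighbours *Adam9* and *Timp1*, and *Timp1* and *Adam10*, lay within their spread. In Veh M[IL-4], *Mmp12* stood second at 331 ± 63.7 RPKM, above *Timp2* at 194 ± 10.4 RPKM. In RSM M[IL-4] the second place was taken by *Mmp13*, the collagenase-3, at 183 ± 9.01 RPKM, with *Timp2* next at 166 ± 12.8 RPKM, the libraries of both genes overlapping, and *Mmp12* at 60.3 ± 7.62 RPKM after *Adam9*, *Timp1* and *Adam10*.

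Differences were tested with edgeR's quasi-likelihood test over 14979 genes, with p-values adjusted by Benjamini-Hochberg (FDR). A call needed an FDR below 0.05 together with a log2 fold change (log2FC) of at least 1 or at most -1. "Rose" and "fell" are used for called genes only, and log2FC values are given ± SE. In M[0], HC3 called 14 of the 39 expressed members (35.9%), 10 up and 4 down, where 12% of all genes were called. RSM also called 14 in M[0], 10 up and 4 down, against 11.6% of all genes. In M[IL-4] each inhibitor called 9 members (23.1%), with 7 up and 2 down for HC3 and 6 up and 3 down for RSM, against 10.3% and 11% of all genes. The median log2FC of the members was 0.44 (HC3) and 0.13 (RSM) without IL-4 and 0.06 and 0.23 after it, where the median over all genes was between 0.01 and 0.02. Since RNA came from whole cultures, fewer cells of a type and less RNA per cell cannot be told apart. Of all genes, 5.93% rose and 6.11% fell with HC3 in M[0], 5.05% and 6.51% with RSM in M[0], 4.72% and 5.53% with HC3 in M[IL-4], and 5.05% and 6% with RSM in M[IL-4]. By the FDR alone, 24, 22, 19 and 16 members passed in the same order, beside 44.1%, 41.1%, 38.8% and 38.6% of all genes. The inhibitor comparisons within a polarization share their Veh libraries.

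Over the 4 inhibitor comparisons, 18 members were called at least once and 21 never. *Mmp13*, *Mmp28*, *Timp1* and *Timp3* rose in all 4, no member fell in all 4, and *Mmp8* was the 1 member that rose in one comparison and fell in another. The share of all genes with these patterns was not taken, so these counts describe the members alone. By family, in HC3 M[0], 5 of 14 MMPs, 2 of 3 TIMPs, 2 of 12 ADAMs and 5 of 10 ADAMTSs were called, and in RSM M[0] 6, 2, 2 and 4. In M[IL-4], HC3 called 4, 2, 0 and 3 and RSM called 5, 2, 0 and 2. The 0 for ADAMs stood beside 5 genes with HC3 and 4 with RSM that passed the FDR without the fold threshold.

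**Figure D1:**
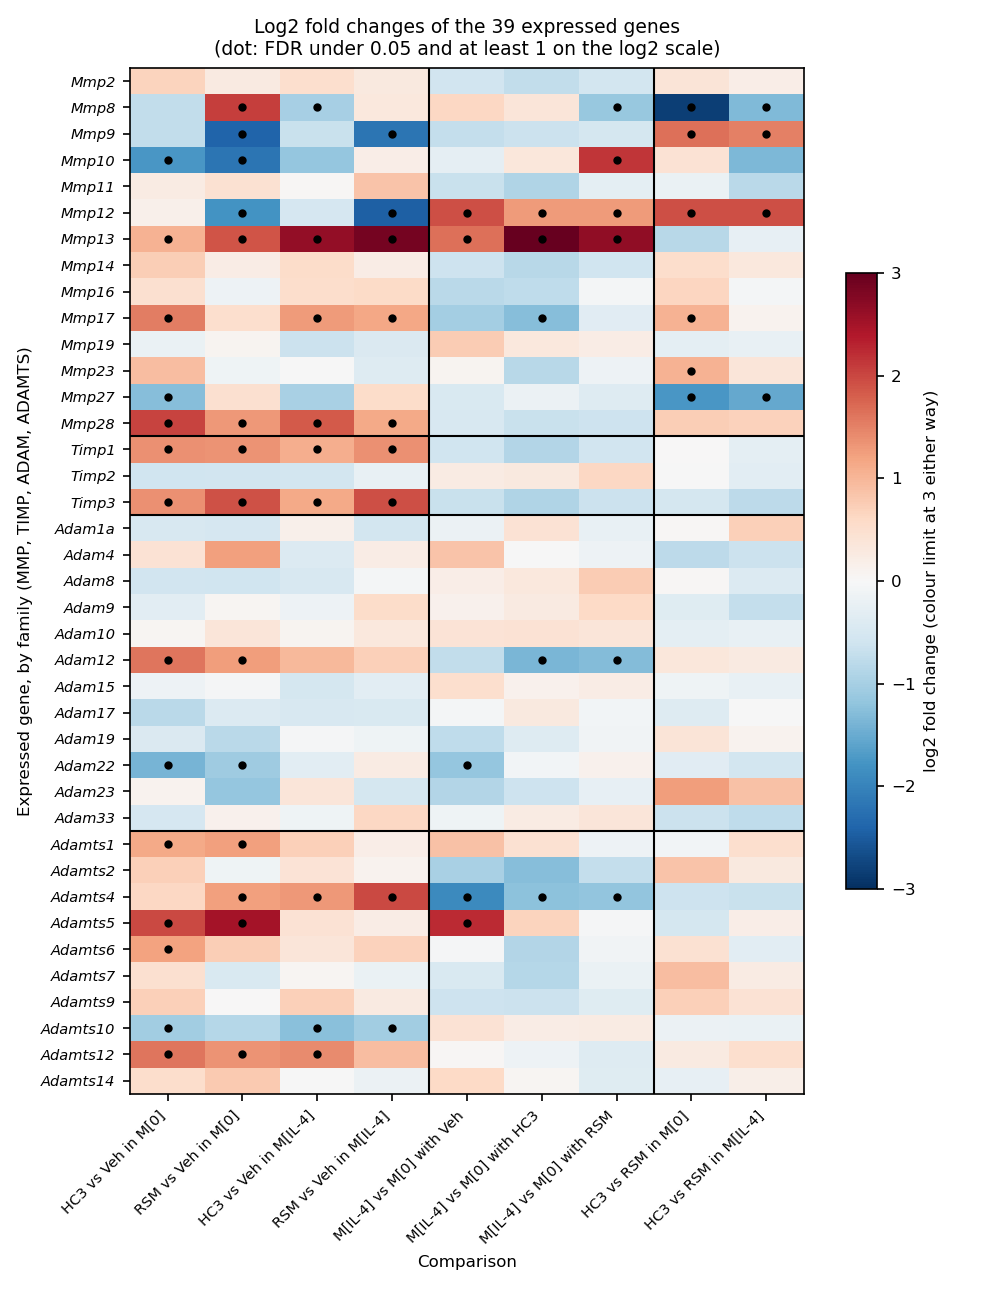
Heat map of log2 fold changes (colour, limited at 3 either way) of the 39 expressed members (rows, by family) in 9 comparisons (columns), with a black dot where a gene was called. The rows of Mmp13, Mmp28, Timp1 and Timp3 carry dots in all 4 inhibitor columns, and the ADAM rows carry none in the M[IL-4] inhibitor columns.

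*Mmp12*, the macrophage elastase (chromosome 9, 7344381 to 7369499), was the most abundant MMP in the Veh and HC3 groups, fell with RSM and rose with IL-4. With RSM *Mmp13* was higher per length, at 29.2 against 25.1 RPKM in M[0] and 183 against 60.3 RPKM in M[IL-4]. The level of *Mmp12* was 672, 674 and 541 CPM in the 3 Veh M[0] libraries, 731, 791 and 567 CPM in HC3 M[0], and 187, 177 and 181 CPM in RSM M[0]. After IL-4 it was 2109, 2926 and 2149 CPM with Veh, 1546, 2005 and 1475 CPM with HC3, and 411, 500 and 399 CPM with RSM. All RSM libraries lay below all Veh and HC3 libraries of the same polarization, and HC3 overlapped Veh in M[0] but not in M[IL-4]. *Mmp12* fell with RSM by a log2FC of -1.79 ± 0.15 in M[0] (FDR = 1.48e-08) and -2.46 ± 0.15 in M[IL-4] (FDR = 3.35e-10). With HC3 it was 0.15 ± 0.14 in M[0] (FDR = 0.438) and -0.52 ± 0.14 in M[IL-4] (FDR = 0.00789), not called in either. *Mmp12* overlaps *Mmp1b* on the other strand over 2.17% of its exon length, and *Mmp1b* had 2 counts in all libraries together.

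*Mmp13*, the collagenase-3 (chromosome 9, 7272514 to 7283331), rose with both inhibitors and with IL-4. It had 23.2, 20.9 and 19.7 CPM in Veh M[0], 46.7, 46 and 39.5 CPM in HC3 M[0], and 80.3, 76.8 and 77.3 CPM in RSM M[0]. With IL-4 it had 59.5, 74 and 67.7 CPM with Veh, 410, 417 and 421 CPM with HC3, and 479, 475 and 518 CPM with RSM. No group overlapped another within a polarization, and the IL-4 libraries with an inhibitor were above every other library. In M[0] the log2FC was 1.05 ± 0.09 for HC3 (FDR = 9.08e-09), which was 0.99 without replicate 2 and then under the fold threshold, and 1.88 ± 0.08 for RSM (FDR = 4.56e-12). In M[IL-4] the fold changes were 6.2 for HC3 (log2FC 2.63 ± 0.08, FDR = 3.8e-14) and 7.31 for RSM (log2FC 2.87 ± 0.08, FDR = 2.83e-14).

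The other collagenase, *Mmp8*, and the adjacent *Mmp27* lie 2910 bases apart and separated the inhibitors. *Mmp8*, a collagenase first known from neutrophils, had 10.8, 13.7 and 10.3 CPM in Veh M[0], 5.35, 10.9 and 4.52 CPM in HC3 M[0], and 49.2, 54.4 and 43.4 CPM in RSM M[0]. Upon IL-4 stimulation it had 16, 20.1 and 17.2 CPM with Veh, 7.87, 10.7 and 8.1 CPM with HC3, and 20.1, 23.4 and 23 CPM with RSM. Only RSM in M[0] stood far above its Veh group, and the HC3 libraries were all below Veh in M[IL-4]. *Mmp8* rose with RSM in M[0] (log2FC 2.08 ± 0.21, FDR = 2.27e-07) and fell with HC3 in M[IL-4] (log2FC -1.0 ± 0.22, FDR = 0.00131), the latter at the fold threshold and lost in 4 of 10 alternative analyses. With HC3 in M[0] its log2FC of -0.74 ± 0.23 (FDR = 0.0142) was short of the fold threshold, and without replicate 2, the highest of the 3 HC3 libraries, it was -1.11. In the RSM M[0] libraries, where *Mmp8* was highest, the 12 neutrophil genes together reached at most 2.04 CPM, although *S100a8* among them rose.

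*Mmp27* had 12.8, 13.7 and 12.6 CPM in Veh M[0], 5.14, 6.25 and 4.84 CPM in HC3 M[0], and 18.1, 19.4 and 17 CPM in RSM M[0]. In M[IL-4] it had 9.21, 10.9 and 8.46 CPM with Veh, 5.04, 4.32 and 5.09 CPM with HC3, and 12.8, 14.4 and 14.6 CPM with RSM. Every HC3 library was below and every RSM library above the Veh libraries of its polarization. *Mmp27* fell with HC3 in M[0] (log2FC -1.27 ± 0.13, FDR = 1.44e-07), and its log2FC of -0.98 ± 0.13 in M[IL-4] (FDR = 6.57e-06) was just short of the fold threshold. With RSM it passed the FDR at 0.48 ± 0.12 in M[0], and after IL-4 at 0.55 ± 0.12.

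The last expressed gene of the cluster, *Mmp10* (stromelysin-2), was close to the floor in several libraries and was named after its values were seen. It had 1.88, 1.35 and 1.4 CPM in Veh M[0], 0.321, 0.922 and 0.105 CPM in HC3 M[0], and 0.213, 0.523 and 0.257 CPM in RSM M[0]. The inhibitor libraries were below the Veh libraries in M[0], and it fell there with HC3 (log2FC -1.76 ± 0.53, FDR = 0.0111) and with RSM (log2FC -2.20 ± 0.55, FDR = 0.00347). In M[IL-4] its log2FC was -1.16 ± 0.52 with HC3 (FDR = 0.0877, and called at -1.14 with FDR = 0.0304 when the replicate number was a block within each polarization) and 0.20 ± 0.46 with RSM (FDR = 0.779). The HC3 call in M[0] was lost without replicate 1 or 3, and the RSM call without replicate 1. Without replicate 2, the highest of the HC3 libraries, the HC3 log2FC was -2.92.

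**Figure D2:**
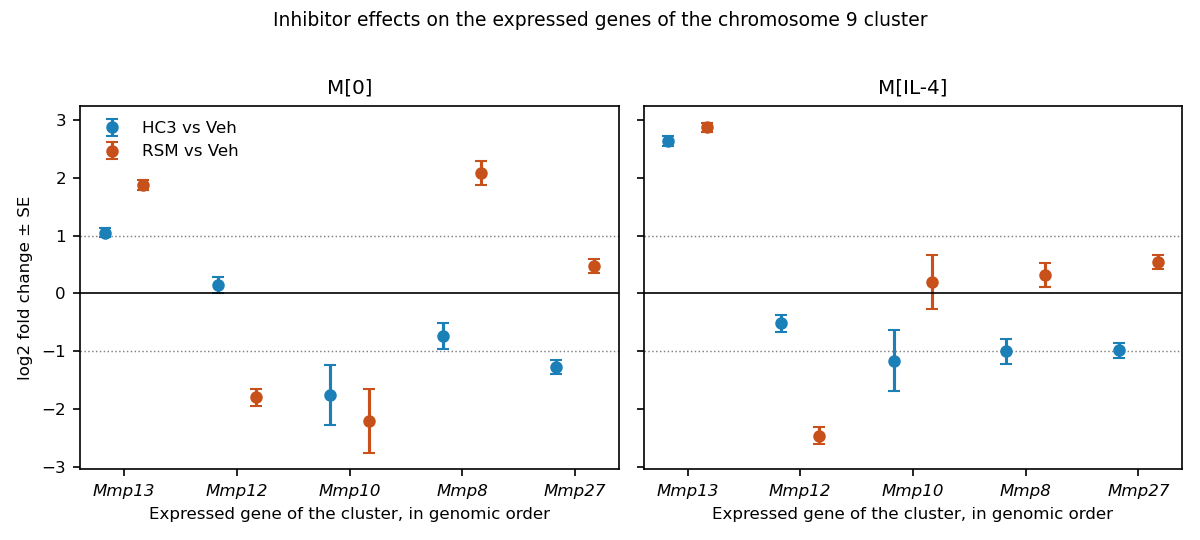
Log2 fold change ± SE (vertical axis) of the 5 expressed MMPs of the chromosome 9 cluster in genomic order (horizontal axis), for HC3 (blue) and RSM (orange) against Veh in M[0] and M[IL-4]. Mmp13 is above 1 for both inhibitors in both panels, Mmp12 is below -1 for RSM only, and Mmp8 and Mmp27 are below 0 for HC3 and above 0 for RSM.

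*Mmp9*, the gelatinase B (chromosome 2), was lower with RSM. It had 11.9, 8.63 and 10.1 CPM in Veh M[0], 5.78, 6.71 and 5.73 CPM in HC3 M[0], and 2.35, 1.57 and 1.9 CPM in RSM M[0]. With IL-4 it had 5.01, 7.43 and 6.16 CPM with Veh, 3.79, 4.48 and 3.39 CPM with HC3, and 1.32, 1.61 and 1.12 CPM with RSM. In both polarizations the order was Veh, HC3, RSM with no overlap. *Mmp9* fell with RSM by a log2FC of -2.39 ± 0.20 in M[0] (FDR = 1.49e-08) and -2.19 ± 0.21 in M[IL-4] (FDR = 1.3e-07). With HC3 it passed the FDR at -0.75 ± 0.18 and -0.67 ± 0.19 and was not called.

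*Mmp28* (epilysin, chromosome 11), a secreted MMP, rose in all 4 inhibitor comparisons from a low level. It had 1.66, 1.06 and 2.26 CPM in Veh M[0], 6.15, 7.43 and 6.84 CPM in HC3 M[0], and 3.68, 4.13 and 4.47 CPM in RSM M[0]. With IL-4 it had 1.02, 1.34 and 1.23 CPM with Veh, 4.53, 3.98 and 4.33 CPM with HC3, and 3.06, 2.26 and 2.61 CPM with RSM. All inhibitor libraries were above the Veh libraries of their polarization, and HC3 libraries were above RSM libraries. The log2FC was 2.03 ± 0.21 for HC3 (FDR = 3.18e-07) and 1.29 ± 0.22 for RSM (FDR = 9.43e-05) in M[0], and 1.84 ± 0.23 (FDR = 3.19e-06) and 1.14 ± 0.24 (FDR = 0.000718) in M[IL-4], the last of these being 0.92 without replicate 1, under the fold threshold. A gene on the other strand overlaps 12% of its exon length, and no source used here states whether counting used the strand.

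*Mmp17*, a membrane-anchored MMP (MT4-MMP, chromosome 5), had 1.33, 2.29 and 2.15 CPM in Veh M[0], 5.67, 4.97 and 6.1 CPM in HC3 M[0], and 3.95, 1.2 and 3.03 CPM in RSM M[0]. It rose with HC3 in M[0] (log2FC 1.54 ± 0.35, FDR = 0.00135) and after IL-4 (1.28 ± 0.40, FDR = 0.0161), and with RSM in M[IL-4] (1.17 ± 0.40, FDR = 0.0272). The calls in M[IL-4] were lost without replicate 1 or 3. *Mmp14* (MT1-MMP), which activates pro-MMP2 at the cell surface, had means of 48.5, 81.4 and 56.4 CPM with Veh, HC3 and RSM in M[0] and 31.4, 45.9 and 36.9 CPM in M[IL-4]. It was not called in any comparison, its log2FC of 0.74 ± 0.25 for HC3 in M[0] being the 1 inhibitor value past the FDR (FDR = 0.0223). *Mmp2*, *Mmp11*, *Mmp16*, *Mmp19* and *Mmp23* were not called with either inhibitor, over levels of 0.406 (*Mmp16*) to 63.1 CPM (*Mmp19*).

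**Figure D3:**
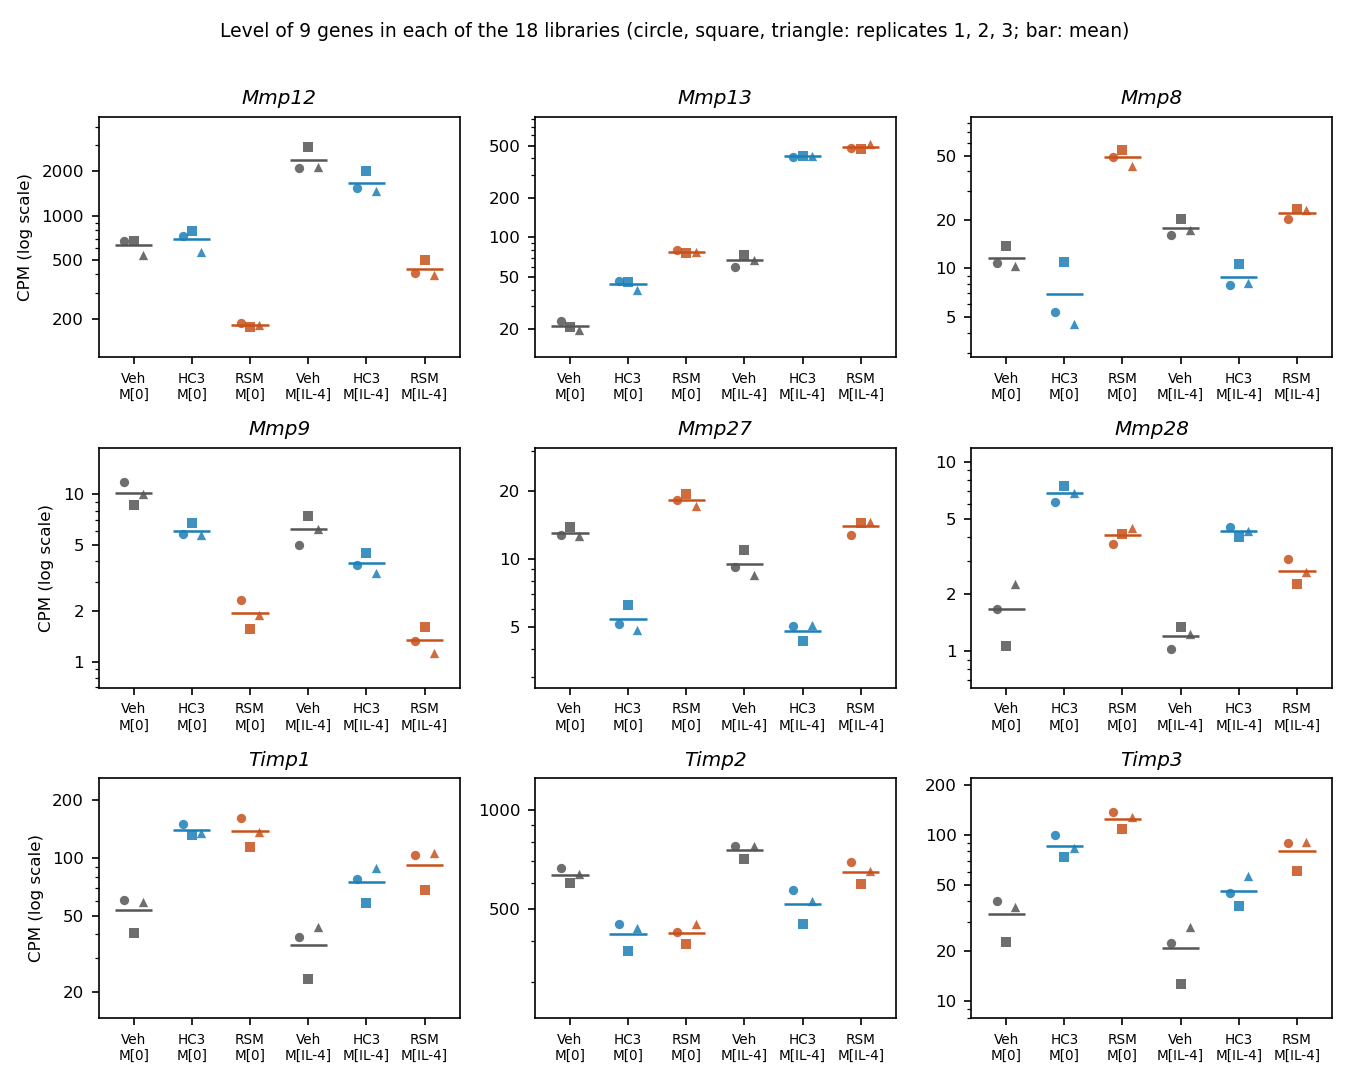
CPM on a log scale (vertical axis) of 9 members in the 18 libraries, by group (horizontal axis), with circles, squares and triangles for replicates 1, 2 and 3 and a bar for the mean of 3 libraries. Mmp13 is at 410 CPM or more only in HC3 and RSM M[IL-4], Mmp12 is lowest in RSM M[0], and the square of replicate 2 is the lowest point of every Timp1 and Timp3 group.

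The TIMPs moved in opposite directions. *Timp1*, a secreted inhibitor (chromosome X, 20870166 to 20874735), had 60.7, 40.6 and 59.2 CPM in Veh M[0], 150, 132 and 135 CPM in HC3 M[0], and 162, 114 and 136 CPM in RSM M[0]. After IL-4 it had 38.8, 23.5 and 44 CPM with Veh, 78.1, 58.6 and 88.8 CPM with HC3, and 103, 67.9 and 106 CPM with RSM. Every inhibitor library was above every Veh library of its polarization. Replicate 2 was the lowest library of each of the 6 groups for *Timp1*, *Timp2* and *Timp3*, as it was for the summed stromal genes. *Timp1* rose by a log2FC of 1.38 ± 0.21 with HC3 (FDR = 3.3e-05) and 1.36 ± 0.21 with RSM (FDR = 3.95e-05) in M[0], and by 1.08 ± 0.22 (FDR = 0.000552) and 1.38 ± 0.22 (FDR = 4.51e-05) in M[IL-4].

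*Timp3*, which binds matrix and also inhibits ADAM17 and aggrecanases (chromosome 10, 86300372 to 86349506), had 40.4, 22.8 and 37 CPM in Veh M[0], 100, 73.6 and 83.9 CPM in HC3 M[0], and 138, 108 and 129 CPM in RSM M[0]. Upon IL-4 stimulation it had 22.4, 12.7 and 28 CPM with Veh, 44.8, 37.5 and 56.5 CPM with HC3, and 89.3, 60.6 and 90.6 CPM with RSM. Again no inhibitor library overlapped Veh. *Timp3* rose by 1.36 ± 0.24 with HC3 (FDR = 0.000116) and 1.90 ± 0.24 with RSM (FDR = 2.89e-06) in M[0], and by 1.13 ± 0.25 (FDR = 0.00115) and 1.93 ± 0.25 (FDR = 3.79e-06) in M[IL-4], all as log2FC. *Timp3* lies within *Syn3*, a gene of the other strand that overlaps 21.3% of its exon length, so without strand its counts can include reads of *Syn3*.

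*Timp2* (chromosome 11), the most abundant TIMP, which also takes part in pro-MMP2 activation, had 666, 598 and 638 CPM in Veh M[0], 449, 373 and 437 CPM in HC3 M[0], and 426, 391 and 450 CPM in RSM M[0]. In M[IL-4] it had 777, 708 and 779 CPM with Veh, 573, 451 and 529 CPM with HC3, and 693, 594 and 653 CPM with RSM. The inhibitor libraries were all below Veh, by less than the fold threshold. Its log2FC was -0.60 ± 0.09 with HC3 (FDR = 2.63e-05) and -0.59 ± 0.09 with RSM (FDR = 3.32e-05) in M[0], and -0.54 ± 0.09 (FDR = 8.17e-05) and -0.22 ± 0.09 (FDR = 0.0569) in M[IL-4]. *Timp4* did not pass the count filter, with at most 5 counts in a library.

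Abundant ADAMs changed by less than 2-fold. *Adam8* had means of 1771, 1187 and 1166 CPM with Veh, HC3 and RSM in M[0] and 2046, 1476 and 1966 CPM in M[IL-4], with log2FC of -0.58 ± 0.07, -0.60 ± 0.07, -0.47 ± 0.06 and -0.06 ± 0.06 for HC3 M[0], RSM M[0], HC3 M[IL-4] and RSM M[IL-4]. It was chosen for its level after values were seen, and the first 3 of these passed the FDR. *Adam17*, the TNF-releasing sheddase (chromosome 12, 21323509 to 21373632), had 351, 315 and 297 CPM in Veh M[0], 193, 184 and 170 CPM in HC3 M[0], and 244, 244 and 232 CPM in RSM M[0]. After IL-4 it had 293, 336 and 298 CPM with Veh, 209, 241 and 216 CPM with HC3, and 208, 246 and 223 CPM with RSM. No inhibitor library overlapped Veh in either polarization. Its log2FC was -0.81 ± 0.08 with HC3 (FDR = 1.44e-07) and -0.42 ± 0.08 with RSM (FDR = 0.000347) in M[0], and -0.48 ± 0.08 (FDR = 0.0001) and -0.45 ± 0.08 (FDR = 0.000157) in M[IL-4], short of the fold threshold in each. *Iah1* overlaps 4.35% of its exon length on the other strand.

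*Adam10*, which cuts Notch receptors and amyloid precursor protein (chromosome 9, 70678997 to 70780229), had 277, 241 and 255 CPM in Veh M[0], 272, 271 and 266 CPM in HC3 M[0], and 318, 341 and 332 CPM in RSM M[0]. Upon IL-4 stimulation it had 370, 322 and 333 CPM with Veh, 325, 393 and 369 CPM with HC3, and 394, 453 and 421 CPM with RSM. RSM libraries were above Veh in both polarizations and HC3 libraries overlapped Veh. The log2FC with RSM was 0.36 ± 0.08 in M[0] (FDR = 0.000828) and 0.31 ± 0.08 after IL-4 (FDR = 0.00306), while for HC3 it was 0.06 ± 0.08 (FDR = 0.525) and 0.09 ± 0.08 (FDR = 0.398).

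The ADAM genes called with the inhibitors were *Adam12* and *Adam22*, both in M[0]. *Adam23* was called with neither inhibitor in the fit without a block, which leaves pairing out. Its log2FC with RSM in M[0] was -1.15, past the fold threshold but not the FDR. In M[0] it had 4.09, 1.12 and 3.28 CPM with Veh and 1.97, 0.471 and 1.39 CPM with RSM. Each of these RSM libraries was below the Veh library of its number. In that polarization *Adam12* (meltrin alpha), an ADAM of muscle and mesenchymal cells, had 3.21, 1.47 and 2.53 CPM with Veh, 7.12, 5.94 and 9.05 CPM with HC3 and 5.12, 6.17 and 6.11 CPM with RSM. It rose by a log2FC of 1.61 ± 0.24 with HC3 (FDR = 2.23e-05) and 1.27 ± 0.24 with RSM (FDR = 0.00032, and 0.96 in log2FC without replicate 2, under the fold threshold). After IL-4 its log2FC of 0.98 ± 0.27 with HC3 (FDR = 0.00748) was just short of the fold threshold, and was called at 1.02 with scaling by library size and at 1.08 without replicate 1, and with RSM it was 0.71 ± 0.27 (FDR = 0.0477). *Adam22*, which lacks protease activity and is a receptor for LGI proteins, had 3.82, 6.28 and 4.19 CPM with Veh, 2.25, 1.95 and 1.21 CPM with HC3 and 1.76, 2.41 and 2.62 CPM with RSM. It fell by -1.40 ± 0.27 with HC3 (FDR = 0.000371) and -1.07 ± 0.27 with RSM (FDR = 0.00326, and -0.88 without replicate 2) as log2FC in M[0], and its log2FC after IL-4 was -0.31 ± 0.29 and 0.24 ± 0.28.

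Most ADAMTS genes that moved rose, and *Adamts10* fell. *Adamts10*, which acts on fibrillin microfibrils (chromosome 17), had 33.3, 38.8 and 41 CPM in Veh M[0], 15.9, 17.5 and 21.6 CPM in HC3 M[0], and 16, 23.2 and 23.2 CPM in RSM M[0]. In M[IL-4] it had 53.2, 49.1 and 49.9 CPM with Veh, 23.2, 20.9 and 20.1 CPM with HC3, and 29.2, 23 and 22 CPM with RSM. The inhibitor libraries lay below every Veh library. It fell with HC3 in M[0] (log2FC -1.04 ± 0.14, FDR = 7.37e-06) and after IL-4 (-1.25 ± 0.14, FDR = 8.45e-07), and with RSM in M[IL-4] (-1.04 ± 0.14, FDR = 6.43e-06), while its log2FC with RSM in M[0] was -0.86 ± 0.14. The M[0] call for HC3 and the RSM call were under the fold threshold, at -0.99 and -0.98, when libraries were scaled by size alone, and the RSM call was also lost without replicate 3, at -0.97.

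*Adamts5*, an aggrecanase (chromosome 16), had 2.32, 2.35 and 3.23 CPM in Veh M[0], 10.9, 9.47 and 11.1 CPM in HC3 M[0], and 20.4, 9.47 and 15.2 CPM in RSM M[0]. After IL-4 it had 14.6, 6.79 and 16 CPM with Veh, 18.2, 9.24 and 22.9 CPM with HC3, and 21.2, 6.35 and 16.3 CPM with RSM. Veh M[0] was below all other groups, and the 3 M[IL-4] groups overlapped. *Adamts5* rose in M[0] with HC3 (log2FC 1.99 ± 0.45, FDR = 0.00145) and RSM (2.50 ± 0.44, FDR = 0.000158), and in M[IL-4] the log2FC was 0.43 ± 0.38 (FDR = 0.408) and 0.23 ± 0.38 (FDR = 0.678).

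*Adamts4*, also an aggrecanase, had 1.99, 0.999 and 2.53 CPM in Veh M[0] and 4.21, 4.29 and 4.57 CPM in RSM M[0], and it had 0.538, 0.0581 and 0.84 CPM with Veh, 1.13, 0.941 and 1.53 CPM with HC3 and 1.22, 2.05 and 2.5 CPM with RSM in M[IL-4]. It rose with RSM in M[0] (log2FC 1.23 ± 0.37, FDR = 0.0117) and after IL-4 (1.98 ± 0.47, FDR = 0.00247), and with HC3 in M[IL-4] (1.30 ± 0.50, FDR = 0.046). The HC3 call was lost without any 1 of the 3 replicates, with FDR of 0.081 to 0.156, and the RSM call in M[0] without replicate 1 or 2. *Adamts1*, which cuts versican and aggrecan, had means of 7.28, 16.1 and 17 CPM with Veh, HC3 and RSM in M[0] and rose with both (log2FC 1.14 ± 0.34, FDR = 0.0113, and 1.22 ± 0.34, FDR = 0.00752), calls that were lost without replicate 3. *Adamts12* had means of 0.921, 2.84 and 2.35 CPM in the same order and rose with both (1.61 ± 0.44, FDR = 0.00614, and 1.34 ± 0.45, FDR = 0.0221) and with HC3 in M[IL-4] (1.42 ± 0.44, FDR = 0.0163). The *Adamts12* calls in M[0] were lost without replicate 1 or 3, and that in M[IL-4] without replicate 3. *Adamts6* rose with HC3 in M[0], from 2.44 ± 0.16 to 5.65 ± 1.82 CPM (log2FC 1.21 ± 0.25, FDR = 0.00075), and was 0.996 in log2FC, just under the fold threshold, without replicate 1. The procollagen proteases *Adamts2* and *Adamts14*, and *Adamts7* and *Adamts9*, were called with neither inhibitor.

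The effect of IL-4 itself was smaller in number. With Veh, IL-4 called 5 of 39 members (12.8%), 3 up and 2 down, where 6.66% of all genes were called (2.83% up and 3.83% down). *Mmp12* rose 3.81-fold (log2FC 1.93 ± 0.15, FDR = 1.15e-08), *Mmp13* 3.16-fold (1.66 ± 0.08, FDR = 4.84e-11) and *Adamts5* 4.72-fold (2.24 ± 0.45, FDR = 0.000816). *Adam22* fell (log2FC -1.17 ± 0.27, FDR = 0.00269), as did *Adamts4* (-1.92 ± 0.48, FDR = 0.00438, lost without replicate 1). The TIMPs were not called, with log2FC of -0.60 ± 0.22 for *Timp1*, 0.25 ± 0.09 for *Timp2* and -0.67 ± 0.25 for *Timp3*.

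With HC3, IL-4 called 5 members (2 up, 3 down) against 3.97% of all genes (1.82% up, 2.14% down), and with RSM 6 (3 up, 3 down) against 4.26% (2.45% up, 1.81% down). By the FDR alone the IL-4 comparisons with Veh, HC3 and RSM passed 18, 17 and 12 members, beside 31%, 14.7% and 15.5% of all genes. *Mmp12* and *Mmp13* rose with IL-4 under each pretreatment. The rise of *Mmp13* was 9.44-fold with HC3 (log2FC 3.24 ± 0.08, FDR = 4.89e-15) and 6.28-fold with RSM (2.65 ± 0.08, FDR = 4.76e-14), and that of *Mmp12* was 2.41-fold with either. *Adam12* and *Adamts4* fell with IL-4 under both inhibitors, *Mmp17* fell with HC3, and *Mmp8* fell (log2FC -1.14 ± 0.20) and *Mmp10* rose (2.13 ± 0.55) with RSM. The calls of *Adamts4* and *Mmp17* with HC3, and of *Adamts4* and *Mmp10* with RSM, were lost without replicate 1 or 3.

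Whether an inhibitor acted differently in M[IL-4] and M[0] was tested as an interaction, which was called for 1.24% of all genes with HC3 (0.481% up, 0.761% down) and 2.14% with RSM (1.22% up, 0.921% down). The FDR alone passed 6.48% and 9.19% of all genes. *Mmp13* was the 1 member called for HC3, with a log2 difference of 1.58 ± 0.12 (FDR = 2.61e-07). For RSM 4 members were called. *Adam22* (1.31 ± 0.39, FDR = 0.0398) and *Mmp10* (2.39 ± 0.73, FDR = 0.0449) had a higher log2FC in M[IL-4] than in M[0], and *Adamts5* (-2.28 ± 0.59, FDR = 0.0182) and *Mmp8* (-1.76 ± 0.30, FDR = 0.000673) had a lower one. The *Mmp13* and *Mmp8* calls were kept in every alternative analysis run, while those of *Adam22*, *Mmp10* and *Adamts5* were lost without some replicates. *Mmp13* with RSM had an interaction of 0.99 ± 0.11 (FDR = 1.86e-05), just short of the fold threshold.

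HC3 and RSM were also compared with each other, at their own doses of 250 and 5 µM. In M[0], 6 members were called (4 higher with HC3, 2 lower) against 3.04% of all genes (1.61% and 1.44%), and in M[IL-4] 4 (2 and 2) against 2.8% (1.21% and 1.59%). Each of these calls was of an MMP. By the FDR alone 11 and 10 members, ADAMs among them in both, passed beside 13.6% and 13% of all genes. *Mmp12* was 3.84-fold higher with HC3 than with RSM in M[0] (log2FC 1.94 ± 0.15, FDR = 5.35e-08) and again 3.84-fold in M[IL-4] (1.94 ± 0.15, FDR = 4.23e-08). *Mmp9* was higher with HC3 by a log2FC of 1.65 ± 0.20 (FDR = 1.52e-05) in M[0] and 1.52 ± 0.22 (FDR = 8.93e-05) in M[IL-4]. *Mmp8* was lower with HC3 by -2.82 ± 0.22 (FDR = 6.83e-08) and -1.32 ± 0.22 (FDR = 0.000352), and *Mmp27* by -1.75 ± 0.12 (FDR = 1.97e-08) and -1.53 ± 0.13 (FDR = 1.14e-07). *Mmp17* and *Mmp23* were higher with HC3 in M[0], by 1.03 ± 0.33 and 1.05 ± 0.34 in log2FC, and both calls were lost without any 1 of the 3 replicates and with scaling by library size alone.

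Summed over its members, each family drew a large share from 1 gene in the Veh groups. *Mmp12* made 78.5% of the MMP sum in Veh M[0] and 40.7% in RSM M[IL-4], where *Mmp13* was higher (490 against 437 CPM), *Timp2* made 61.7% to 93% of the TIMP sum, *Adam8* 50.8% to 60.8% of the ADAM sum and *Adamts10* 16.5% to 50.1% of the ADAMTS sum. *Adamts2* was above *Adamts10* in HC3 M[0] (46.5 against 18.3 CPM) and in RSM M[0] (25.7 against 20.8 CPM). The MMP sum was 801 ± 76.7 CPM with Veh, 929 ± 113 CPM with HC3 and 461 ± 21.8 CPM with RSM in M[0], and 2605 ± 464, 2224 ± 274 and 1073 ± 30.8 CPM in M[IL-4]. RSM libraries were below Veh in both, and HC3 libraries overlapped Veh. Without *Mmp12* the log2 ratio of group means turned from -0.80 to 0.70 for RSM in M[0] and from -1.28 to 1.59 in M[IL-4].

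The TIMP sum overlapped between inhibitor and Veh in 3 of 4 comparisons, at 721 ± 53.6, 644 ± 61.5 and 685 ± 61.6 CPM with Veh, HC3 and RSM in M[0] and 811 ± 58.3, 639 ± 80.4 and 819 ± 85.8 CPM in M[IL-4]. Per length the direction turned in M[0], where the log2 ratio of group means to Veh was -0.16 (HC3) and -0.07 (RSM) in CPM and 0.28 and 0.29 in RPKM, the HC3 libraries then being above Veh without overlap. The MMP ratio for HC3 in M[IL-4] likewise turned from -0.23 in CPM to 0.0841 in RPKM. The ADAM sum was 2919 ± 145, 2121 ± 60.7 and 2297 ± 52.7 CPM in M[0] and 3367 ± 49.5, 2597 ± 19.3 and 3361 ± 56.3 CPM in M[IL-4], lower than Veh without overlap in all but RSM M[IL-4]. The ADAMTS sum was the lowest of the 4, at 83.8 ± 27.1 to 111 ± 23.5 CPM, and overlapped between every inhibitor group and its Veh. Read by replicate number, all 3 ADAMTS sums were higher with either inhibitor than with Veh in M[0] and all 3 were lower in M[IL-4]. The lower sums in M[IL-4] came from *Adamts10*, which made 50.1% of the Veh M[IL-4] sum. Without it all 3 were higher with either inhibitor there too. In the same reading the MMP sum with HC3 was higher in M[0] and lower in M[IL-4] in all 3 numbers, and the TIMP sum was lower in all 3 except with RSM in M[IL-4]. These sums are descriptions and were given no test.

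**Figure D4:**
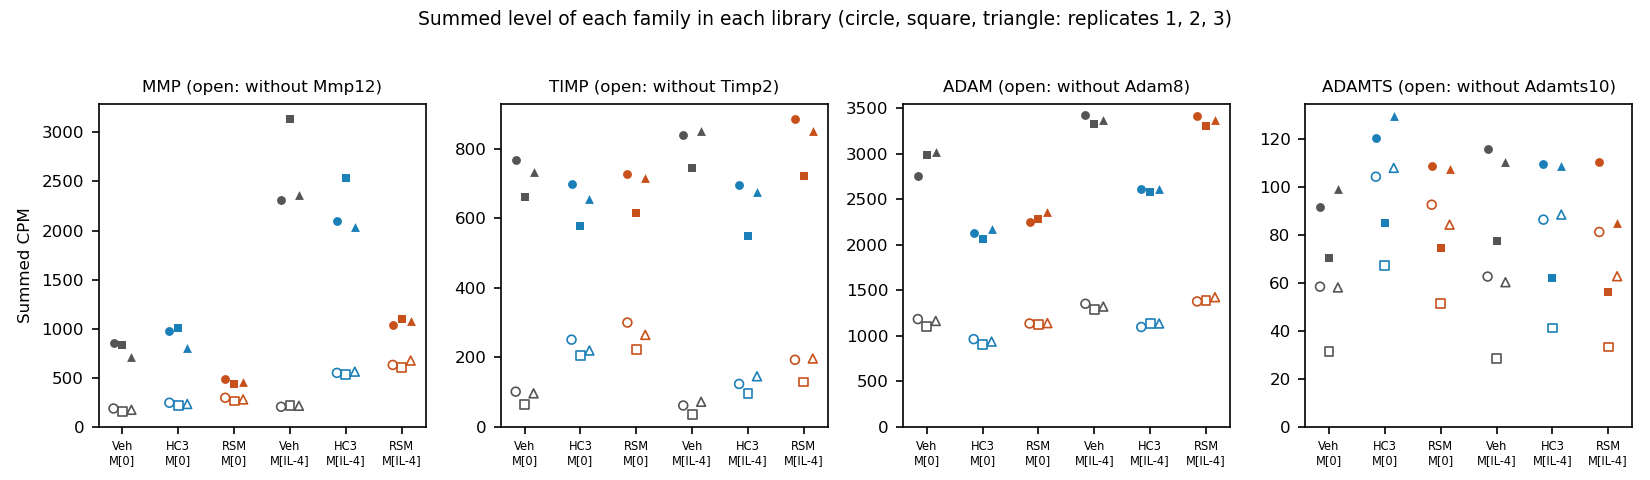
Summed CPM (vertical axis, from 0) of each family in the 18 libraries by group (horizontal axis), as filled symbols, and the same without the most abundant member as open symbols (circle, square, triangle for replicates 1, 2 and 3). The filled MMP points are lower with RSM than with Veh, while the open MMP points are higher.

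The low stromal sum of replicate 2 was followed by some members and not by others. In 13 of the 39 expressed members, replicate 2 was the lowest library of its group in all 6 groups, among them *Timp1*, *Timp2*, *Timp3*, *Mmp2*, *Mmp14*, *Adamts1* and *Adamts2*, and in another 5, which included *Adamts5*, *Adamts12* and *Mmp17*, in 5 groups. The ratio of replicate 2 to the mean of the others had a median over groups of 0.69 for *Timp1*, 0.707 for *Timp3*, 0.887 for *Timp2*, 0.626 for *Mmp14* and 0.491 for *Adamts5*, beside 0.578 for the stromal sum and 1.08 for the macrophage sum. In 15 members replicate 2 was lowest in at most 2 groups, and *Mmp12*, *Mmp13*, *Mmp8*, *Mmp9*, *Mmp27*, *Adam10*, *Adam17* and *Adamts10* among them had median ratios of 0.959 (*Adamts10*) to 1.25 (*Mmp8*). How many of all genes share these orders was not counted, so they are not shown to be particular to the members.

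The summed stromal level was also higher on average with both inhibitors, without overlap with Veh in M[0] but with overlap in M[IL-4]. With HC3 in M[0], 5 of its 13 tested genes rose and 0 fell, beside 5.93% and 6.11% of all genes. With RSM in M[0], 4 rose and 2 fell (*Dcn* and *Fap*), beside 5.05% and 6.51%. After IL-4, 2 rose and 0 fell with HC3, beside 4.72% and 5.53%. There 2 rose and 1 fell (*Dcn*) with RSM, beside 5.05% and 6%. The part of stromal cells in the member results was not tested. Without replicate 2, *Timp1* had log2FC of 1.23 (HC3) and 1.30 (RSM) without IL-4 and 1.01 and 1.32 after it, and *Timp3* had 1.24 and 1.77 and then 1.01 and 1.82, each still called. Without replicate 2 the counts of members called were 14 for HC3 and 12 for RSM without IL-4, and after it 8 and 9.

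**Figure D5:**
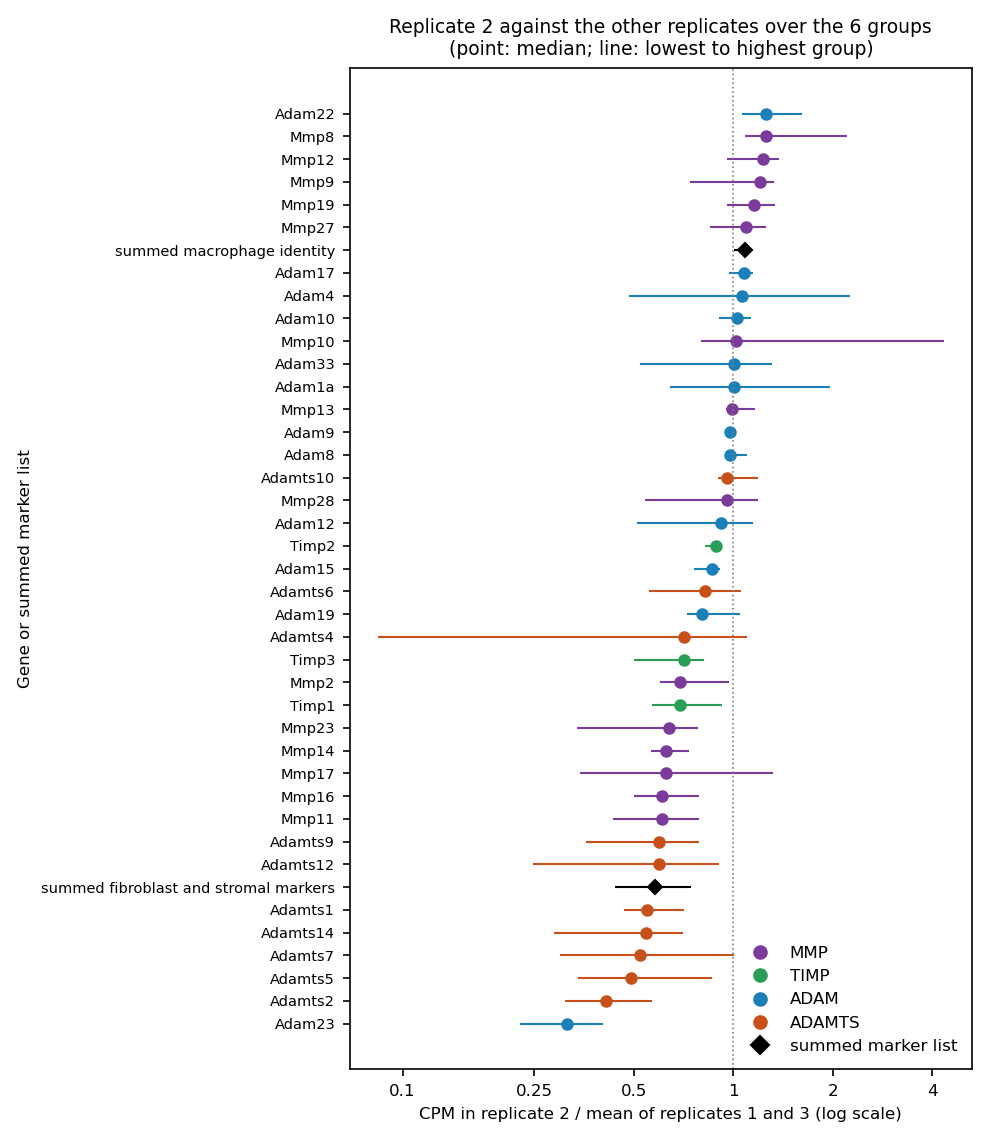
Ratio of CPM in replicate 2 to the mean of replicates 1 and 3 (horizontal axis, log scale) for the 39 expressed members and for the summed stromal and macrophage markers (vertical axis, ordered), with a point at the median of the 6 groups and a line from the lowest to the highest. The ADAMTS genes span 0.412 (Adamts2) to 0.959 (Adamts10), with the stromal sum at 0.578. Of the MMPs, Mmp8, Mmp9, Mmp12, Mmp19 and Mmp27 lie above the macrophage sum at 1.08, and Mmp10, Mmp13 and Mmp28 below it at 0.957 to 1.02. Mmp2, Mmp11, Mmp14, Mmp16, Mmp17 and Mmp23 lie at 0.610 to 0.692, nearer the stromal sum.

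Genes that work with these proteases were taken from 4 lists. Their calls are set beside the background shares given above, 4.72% to 5.93% of all genes up and 5.53% to 6.51% down. Of 15 tested cofactors and regulators of ADAM10 and ADAM17, 1 rose in each inhibitor comparison, *Sfrp1*, a secreted WNT antagonist that also inhibits ADAM10, from means of 2.29 to 8.34 CPM with HC3 and 7.75 CPM with RSM in M[0] (log2FC 1.85 ± 0.54 and 1.75 ± 0.54). In M[IL-4] its means were 6.18 CPM with Veh, 25.1 CPM with HC3 and 30.5 CPM with RSM (2.02 ± 0.46 and 2.30 ± 0.46). *Tspan33*, a tetraspanin partner of ADAM10, fell in all 4, from 2.43 CPM to 0.384 and 0.122 CPM in M[0] and from 1.63 CPM to 0.425 and 0.19 CPM in M[IL-4]. Its means with RSM were below or near the floor, so the size of its fall with RSM cannot be read from them. The tetraspanin *Cd9* fell with RSM in M[IL-4] (log2FC -1.02 ± 0.13). The median log2FC of this list was between -0.10 and -0.06 in the 4 comparisons. Apart from the 2 that fell with RSM in M[IL-4], its counts of 1 up and 1 down were near the shares of all genes.

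Of 16 tested activators and other inhibitors of metalloproteinases, 3 rose with HC3 and 0 fell in each polarization, and with RSM 4 rose and 1 fell in M[0] and 3 rose and 1 fell in M[IL-4]. *Plau*, the urokinase that generates plasmin, fell with RSM (log2FC -1.25 ± 0.10 in M[0], and after IL-4 -1.90 ± 0.10), and its receptor *Plaur* rose with RSM in M[0] (1.15 ± 0.09). *Lcn2*, a binding partner of MMP9, rose in all 4 comparisons, from group means near or below the floor with Veh to at most 2.13 CPM, so no fold is given.

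Of 23 tested proteins shed from the cell surface, 2 rose and 7 fell with HC3 and 2 rose and 10 fell with RSM in M[0], and 2 rose and 5 fell with HC3 and 1 rose and 4 fell with RSM in M[IL-4]. The median log2FC of this list was -0.33 (HC3) and -0.36 (RSM) without IL-4 and -0.20 and -0.57 after it. *Cxcl16*, a chemokine released by ADAM10, fell in all 4, from 215 CPM to 50.2 and 77.3 CPM in M[0] (log2FC -2.10 ± 0.09 and -1.48 ± 0.09) and from 85.2 CPM to 30.6 and 35.3 CPM in M[IL-4] (-1.48 ± 0.10 and -1.27 ± 0.09). *Csf1r*, the receptor for M-CSF and a substrate of ADAM17, fell in M[0] with HC3 (-1.39 ± 0.07) and RSM (-1.21 ± 0.07), and the haptoglobin receptor *Cd163* fell in all 4, by -2.65 ± 0.19 with HC3 in M[IL-4]. *Csf1r* and *Mertk*, which fell with HC3 in M[0], are also among the macrophage identity genes, so they are no separate evidence beside them. Of the EGF receptor ligands, *Ereg* rose in all 4 comparisons from 0.613 CPM or less and *Hbegf* rose in M[0], from 3.29 CPM to 12.2 CPM with HC3 and 7.19 CPM with RSM. *Jam3* rose with HC3 in M[IL-4] (1.23 ± 0.37), and *Kitl*, the ligand of KIT, fell with RSM there (-1.52 ± 0.11).

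Of 15 tested matrix substrates, HC3 raised 6 and RSM 5 in naïve cells, 5 and 4 rose after IL-4, and 0 fell. The median log2FC was 0.99 (HC3) and 0.67 (RSM) without IL-4 and 0.84 and 0.78 after it. *Thbs1* (thrombospondin-1) rose in all 4, with means of 735, 1993 and 3328 CPM with Veh, HC3 and RSM in M[0]. *Vcan*, the proteoglycan versican that ADAMTS1, ADAMTS4 and ADAMTS5 cut, rose with RSM in M[0] from 31.8 to 325 CPM (log2FC 3.35 ± 0.18) and in M[IL-4] from 11.2 to 100.4 CPM (3.16 ± 0.19), and with HC3 in M[IL-4] (1.57 ± 0.19). *Col1a1* and *Col3a1* rose with both inhibitors in M[0] and are also in the stromal list, so they are no separate evidence beside it.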

How the data were processed

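RNA of 18 BMDM libraries was sequenced after poly-T selection. Reads were trimmed (fastp) and aligned to GRCm38 (STAR) by the authors, who kept duplicates, and the raw counts of read pairs per gene from featureCounts were deposited. The strand setting is not given in the sources used here. Library totals ran from 17457796 to 19522255 counts. The 14979 genes that reached 10 counts in 2 or more libraries were scaled by TMM, and the 6 groups were fitted together, without a block, in edgeR 4.0.16 (R 4.3.3, quasi-likelihood, Benjamini-Hochberg over all genes tested). A permutation test over 3 against 3 libraries cannot go below 0.1, so none was run. Standard errors are the log2FC divided by the square root of F. In counts simulated for HC3 against Veh in M[0], with 200 of 14569 genes changed at a log2 fold of 2, the test recovered 198 with 4 false calls. The changed genes all had a mean above 2 CPM, and the simulated libraries were drawn independently of their replicate number. Smaller changes and genes at lower levels were not simulated, so the recovery does not cover them.

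Same-numbered libraries deviated together within a polarization (correlations 0.11 to 0.372, 18 of 18 pairs above 0.1). Across polarizations 12 of 27 same-numbered pairs, and 10 of 54 pairs of different numbers, were above 0.1. As not every pair passed there, numbers were taken from the data as pairing libraries within a polarization. Pairing across polarizations was left undecided, since replicate 2 had the lowest stromal sum in all 6 groups. The SE and FDR values given are of the fit without a block and leave pairing out. The replicate block was an alternative. Other alternatives were DESeq2 1.42.0, other count filters, scaling by library size, fitting only the groups compared and leaving out each replicate. The members and the lists of partner and marker genes were chosen with earlier results of these data known. Members were named if called in an inhibitor comparison or for IL-4 with Veh given a mean of 50 counts or more in the group with the higher level, and *Timp1*, *Timp2*, *Timp3*, *Mmp9*, *Mmp12*, *Mmp13*, *Mmp14*, *Adam10* and *Adam17* in any case. Of each partner list up to 2 called genes per direction and comparison with the lowest FDR were named. *Adam8*, *Mmp10* and other genes outside this rule were named after their values were seen. Protein sequences were not analysed here, and some genes of these lists are not reported here.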

Additional observations from a re-analysis of the deposited data

Results flagged for a closer look

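5 members responded differently to an inhibitor in M[IL-4] and in M[0], by the interaction term of the edgeR fit over all genes. For *Mmp13* with HC3 the log2 difference was 1.58 (1.51 to 1.72 over the alternatives run), and for *Mmp8* with RSM it was -1.76; both calls held in every alternative run. The other 3 calls were for RSM and were lost in some alternatives. *Adam22* differed by 1.31, which was not called without replicate 1 (FDR = 0.167), 2 (FDR = 0.129) or 3 (FDR = 0.188), nor in a fit of only the groups compared (FDR = 0.0582). *Adamts5* differed by -2.28, which was not called without replicate 1 (FDR = 0.153) or 3 (FDR = 0.232). *Mmp10* differed by 2.39, at levels near the floor, and was not called without replicate 1 (FDR = 0.291), 2 (FDR = 0.0541) or 3 (FDR = 0.139).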

How the results depend on the processing

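Of 140 named values, 76 were called, of which 48 were called under every alternative, 28 were lost under at least 1 and 0 changed direction, and 6 of the 64 others became called. With the FDR alone, the members called numbered 24 (HC3) and 22 (RSM) without IL-4, 19 and 16 after it, 18, 17 and 12 for IL-4 with Veh, HC3 and RSM, 11 and 10 between the inhibitors in M[0] and M[IL-4], and 9 for the RSM interaction. The HC3 interaction count of 1 became 2 with the replicate block and 2 with no count filter. Leaving out a replicate gave 3 to 6 members for IL-4 with HC3, and 1 to 3 for either interaction. The replicate block also called *Mmp17* for IL-4 with Veh (log2FC -1.04, FDR = 0.0227) and, within each polarization, *Mmp10* for HC3 in M[IL-4] (-1.14). It changed no other call among the 140 named values. Over all members, those called down with RSM in M[0] went from 4 to 5 with either form of the block. Family sums in RPKM gave log2 ratios for MMPs of -0.25 (RSM M[0]), 0.0841 (HC3 M[IL-4]) and -0.47 (RSM M[IL-4]), and for TIMPs of 0.28 and 0.29 without IL-4 and -0.0811 and 0.24 after it. Without *Mmp12* the MMP ratios were 0.70 (RSM M[0]), 1.38 (HC3 M[IL-4]), 1.59 (RSM M[IL-4]) and, for IL-4 with Veh, 0.29. Without *Timp2* the TIMP ratios were 1.37 and 1.59 for HC3 and RSM without IL-4, 1.11 and 1.61 after it and, for IL-4 with Veh, -0.62. Without *Adam8* the ADAM ratios in that order were -0.30, -0.0227, -0.24 and 0.0791, and by library size -0.33 and 0.0472 in M[IL-4]. Without *Adamts10* the ADAMTS ratios were 0.92 and 0.63 without IL-4 and 0.51 for HC3 after it. For RSM in M[IL-4] the ratio turned from -0.27 to a positive value. Values that were not called changed sign when a replicate was left out, with ranges of -0.0010 to 0.0936 and -0.019 to 0.223 for *Adam10* with HC3 in M[0] and M[IL-4], -0.138 to 0.035 for *Adam17*, -0.386 to 0.247 for *Adamts12*, -0.203 to 0.052 for *Adamts6* and -0.847 to 0.193 for *Mmp10* with IL-4, -0.0076 to 0.361 for *Adamts5* with RSM in M[IL-4], and -0.076 to 0.986 for *Mmp17* with RSM in M[0]. By library size *Adamts12* was -0.022 with IL-4. The causes were not tested. Depth limits *Mmp10*, *Adamts4* and *Adamts12*, with libraries under 1 CPM.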
